A study of Mus musculus with 20 samples.

Results

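The genes described are the nuclear-encoded subunits of complexes II, III, IV and V of the respiratory chain in the mouse heart. They were chosen by name: protein-coding genes called Sdha, Sdhb, Sdhc, Sdhd or Cyc1, or with symbols starting with Uqcr, Cox4i, Cox5, Cox6a, Cox6b, Cox6c, Cox7a, Cox7b, Cox7c, Cox8 or Atp5. The rule found 48 genes among the 49005 with counted exon pieces: 4 of complex II, 9 of complex III, 18 of complex IV and 17 of complex V. Left out were 8 pseudogenes with such names and 1 additional gene ID for Atp5o that had no exon piece. The rule itself uses no measured value. Of the 48, 46 passed the filter on low counts and were tested. Cox8c had no count in any of the 19 libraries compared, and a count of 0 allows up to 3 counts, or 0.0539 CPM in the smallest library. Cox7b2 reached at most 0.127 CPM. This floor covers counting error only.

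Complex II oxidises succinate and passes the electrons to ubiquinone. Complex III moves them on to cytochrome c, complex IV hands them to oxygen, and complex V, the ATP synthase, uses the proton gradient built on the way to make ATP. Cardiac muscle is packed with mitochondria and makes most of its ATP by this route. Several subunits come as a heart and skeletal muscle gene and a widely expressed gene, such as Cox6a2 and Cox6a1, Cox7a1 and Cox7a2, and Cox8b and Cox8a.

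The series compared hearts of wild-type C57BL/6 mice, aged 12 weeks in the labels, by diet and sex, with 5 libraries each of chow females (Chow-F), chow males (Chow-M), high-fat females (PA-F) and high-fat males (PA-M). The label PA was taken as the high-fat diet because the series names only chow and a high-fat diet. The labels give neither the fat content nor the duration of the diet, and they do not say that each library is a separate animal, so a p-value here speaks only of how these samples vary. Chow-M4 was deposited as counts per gene and not per exon piece, so it entered no comparison and Chow-M has 4 libraries. No gene was altered in any group.

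The 19 libraries held 57805110 to 85794067 counts, of which the 48 genes took 4.2% to 5.43%. High-fat females 4 and 5 stood apart from the other 17 libraries. Malat1, a nuclear RNA, reached only 117 and 63.9 CPM there, and 1132 to 1533 CPM in the rest. For each 10 points of GC content, a gene's level relative to chow rose by 0.51 and 0.75 log2 in these libraries; slopes in the rest ran from -0.07 to 0.12. Counts, medians and isoform ratios that use high-fat females are therefore mostly given with and without them. Ventricular markers were abundant, with a summed level of 128249 to 137728 CPM in chow females, while the brown fat gene Ucp1 and the white fat gene Lep averaged under 0.1 CPM. Clock genes separated the sexes: Dbp ranged from 72.6 to 137 CPM in females and from 7.78 to 19.4 CPM in males.

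The subunit genes were among the most abundant messages of the heart. Levels are compared between genes per exon length, in CPM (counts divided by the TMM-adjusted size of the library and scaled up) per kilobase of exon, averaged over 19 libraries. Atp5a1 and Atp5b, the alpha and beta subunits that form the catalytic head of the ATP synthase, led with 1912 and 1733 CPM per kb. They were followed by Cox4i1, a structural subunit of complex IV, at 1561 CPM per kb and by the muscle genes Cox6a2 and Cox7a1 at 1265 and 1225 CPM per kb. Among all genes with exon pieces these 5 ranked 28, 31, 32, 40 and 42. In complex II the flavoprotein Sdha was highest at 657 CPM per kb, above the iron-sulphur subunit Sdhb at 423 CPM per kb and the membrane anchors Sdhd and Sdhc at 209 and 127 CPM per kb. In complex III the core protein Uqcrc2 was at 569 CPM per kb and Cyc1, cytochrome c1, at 542 CPM per kb, with Uqcr10, a small subunit, lowest at 233 CPM per kb. Exon length here is the union of all annotated exons, so genes with long rare exons, such as Atp5l with 6443 bases and 44.9 CPM per kb, are set low on this scale. A read that spans several pieces counts in each, which also moves levels between genes.

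The low end of the order was held by genes known for other tissues or other roles. Cox4i2, the lung and hypoxia-linked counterpart of Cox4i1, stood at 7.10 CPM per kb, and Cox6b2, the testis counterpart of Cox6b1, at 2.96 CPM per kb. Cox7b2 was at 0.0944 CPM per kb and Cox8c was not detected. Atp5s, whose RefSeq symbol is Dmac2l, stood at 10.2 CPM per kb, far below the 156 CPM per kb of Atp5g2. It is a coupling factor not found among the core subunits of the purified enzyme. The name rule also takes in Cox7a2l, at 102 CPM per kb, a gene linked to the joining of complexes III and IV into supercomplexes. That role was not measured here. In Chow-M4, the library counted per gene, Atp5a1 and Atp5b also led, at 3318 and 2877 TPM, its counts per kilobase scaled to a fixed sum. There Cox6a2 at 2871, Cox7a1 at 2624 and Cox8b at 2102 TPM stood above Cox4i1 at 2062 TPM.

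**Figure D1:**
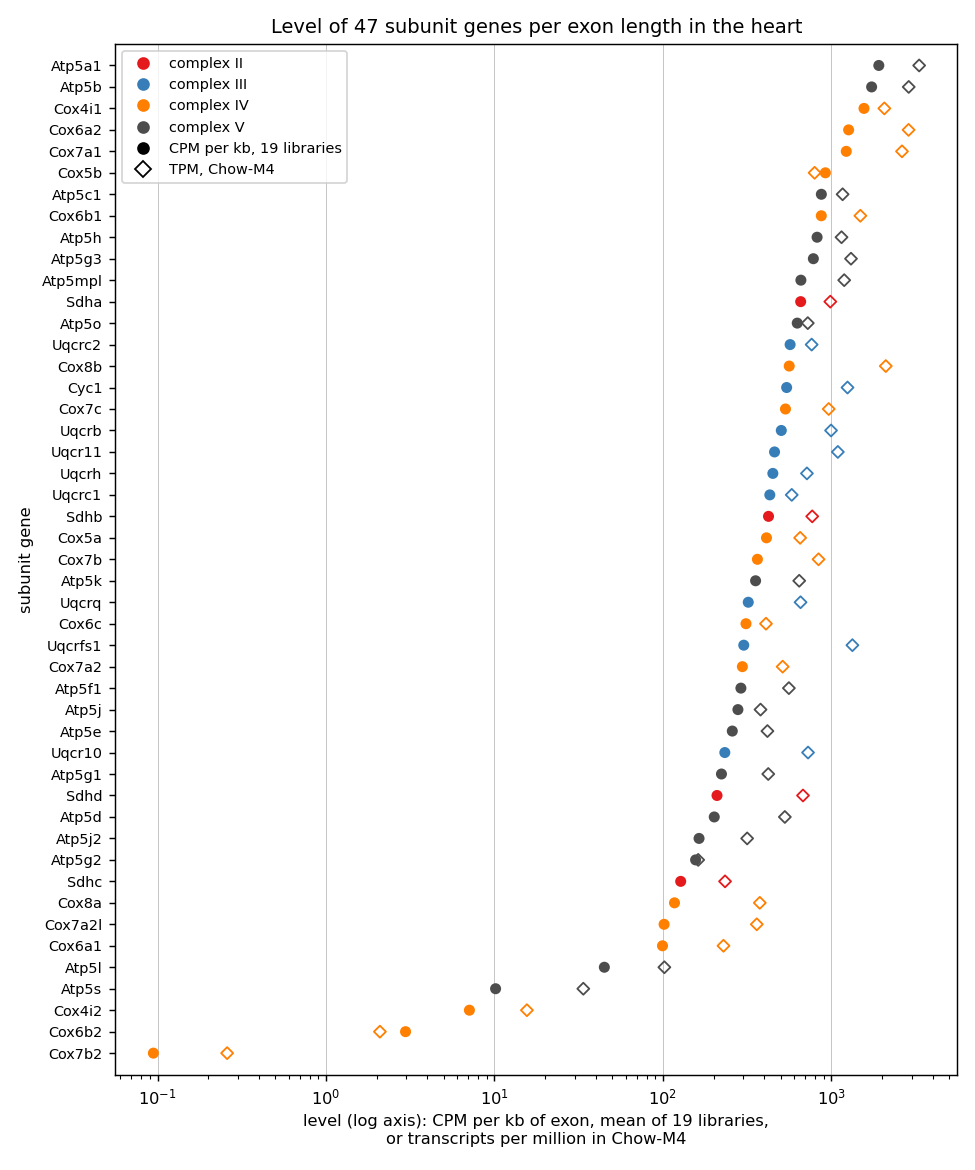
Level of 47 subunit genes per exon length, on a log axis: filled circles are the mean CPM per kilobase of exon over 19 libraries, open diamonds the TPM of the single library Chow-M4, colours the complex. Atp5a1 and Atp5b sit at the top, and Cox4i2, Cox6b2 and Cox7b2 at the bottom; Cox8c, with no count in the 19 libraries, is not drawn.

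The spread between libraries of a chow group was small. Within the chow groups, the coefficient of variation of the tested subunit genes had a median of 6.49%, from 3.14% in Atp5a1 to 23.6% in Cox6b2. The median over all 13512 genes of at least 1 CPM was 7.69%. High-fat females spread more in genes such as Atp5a1, at 6148 ± 912 CPM beside 5951 ± 184 CPM in chow females (SD, n = 5 and 5). In Cox7b they did not, at 422 ± 29.1 CPM beside 476 ± 36.6 CPM. The standard error of a log2 difference between groups had a median of 0.08 to 0.09 for diet in either sex and for sex on either diet. It comes from 1 fit of all 4 groups.

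The stretch of 250 bases before the annotated start was taken from RefSeq (GRCm38.p6) for 36 of the 48 genes, 34 by symbol and 2 by gene ID, Atp5s as Dmac2l and Atp5f1 as Atp5pb. Not in that table were Sdhc, Cyc1, Uqcrb, Uqcrc2, Uqcrq, Cox4i1, Cox4i2, Cox6a2, Cox6c, Cox8c, Atp5a1 and Atp5mpl. The sequences were searched on both strands for motifs of factors known for mitochondrial and muscle genes. GCGCATGC, part of the NRF1 site, lay in 5 of 36 genes (13.9%) and in 2.56% of the 27025 genes of the table. CCGGAAG, bound by ETS factors such as GABP, lay in 9 of 36 (25.0%) and in 7.83% of all genes. AAGGTCA (ERR) lay in 2 and AAGATGGC (YY1) in 1 of 36, against 4.70% and 1.83% of all genes. CANNTG, the E-box, lay in 24 of 36 and in 69.3% of all genes. Of these motifs only the NRF1 letters overlapped, with their own reverse strand. A match describes letters and is not a binding site.

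Printed below, 5′ to 3′ on the strand of the gene, are the stretches of 6 genes on which the results turn: Atp5s, the gene called for diet, and isoform genes whose ratios are compared. Cox6a1 stands without its partner Cox6a2, which was not in the RefSeq table. Capitals mark matches to the NRF1, ETS, ERR or YY1 letters.
Atp5s, chr12:69724695-69724944, plus strand: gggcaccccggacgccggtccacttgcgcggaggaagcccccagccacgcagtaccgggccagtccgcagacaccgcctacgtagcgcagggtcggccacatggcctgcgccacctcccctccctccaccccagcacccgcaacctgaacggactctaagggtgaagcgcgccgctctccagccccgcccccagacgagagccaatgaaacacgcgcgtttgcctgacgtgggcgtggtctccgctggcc
Cox6a1, chr5:115348959-115349208, minus strand: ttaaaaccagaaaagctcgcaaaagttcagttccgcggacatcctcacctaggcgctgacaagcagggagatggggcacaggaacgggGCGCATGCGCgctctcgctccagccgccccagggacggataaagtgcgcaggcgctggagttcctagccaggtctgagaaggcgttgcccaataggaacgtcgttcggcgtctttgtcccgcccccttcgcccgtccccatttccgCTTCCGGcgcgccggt
Cox8a, chr19:7217617-7217866, minus strand: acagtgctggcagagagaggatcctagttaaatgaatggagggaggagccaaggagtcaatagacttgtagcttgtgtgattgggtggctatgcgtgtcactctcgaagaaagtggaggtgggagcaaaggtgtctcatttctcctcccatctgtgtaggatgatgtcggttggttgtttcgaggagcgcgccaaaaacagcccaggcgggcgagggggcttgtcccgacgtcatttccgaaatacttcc
Cox8b, chr7:140900447-140900696, minus strand: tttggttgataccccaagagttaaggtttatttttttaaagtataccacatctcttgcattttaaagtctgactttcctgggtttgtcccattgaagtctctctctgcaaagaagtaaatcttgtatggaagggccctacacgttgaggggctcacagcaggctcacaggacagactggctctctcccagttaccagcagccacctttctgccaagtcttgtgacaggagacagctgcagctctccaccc
Atp5g2, chr15:102671048-102671297, minus strand: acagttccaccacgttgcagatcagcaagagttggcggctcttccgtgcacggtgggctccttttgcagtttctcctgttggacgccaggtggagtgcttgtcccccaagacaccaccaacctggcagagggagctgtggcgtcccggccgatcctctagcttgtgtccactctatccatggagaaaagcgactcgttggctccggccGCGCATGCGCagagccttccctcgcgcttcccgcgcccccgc
Atp5g3, chr2:73911327-73911576, minus strand: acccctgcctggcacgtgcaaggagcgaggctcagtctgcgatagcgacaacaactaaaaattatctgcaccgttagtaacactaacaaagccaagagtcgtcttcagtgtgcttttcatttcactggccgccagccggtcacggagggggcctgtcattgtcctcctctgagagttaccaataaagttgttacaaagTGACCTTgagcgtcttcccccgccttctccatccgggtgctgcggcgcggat

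Cox6a1, the widely expressed gene, held the NRF1 letters on both strands in 1 overlapping run and 1 ETS match, the last beginning at base -16, counted from the start. Atp5g2 held such an NRF1 run as well, and Atp5g3 held 1 ERR match. In Atp5s, Cox8a and Cox8b none of these letters were in the window. Cox8b, the muscle gene of its pair, held 1 CpG in 250 bases and Cox8a 11, while Atp5s held 26. Genes with and without the NRF1 letters had median diet differences in females of -0.01 (5 genes) and -0.02 log2 (30 genes), and of -0.19 and -0.18 without high-fat females 4 and 5. For the ETS letters these medians were -0.01 and -0.02, and -0.18 and -0.19, with 9 and 26 genes.

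Within a library, the 46 tested genes moved together. Each gene's log2 level was set against the mean of the chow libraries of the same sex. The median over the genes was -0.14, -0.20 and -0.15 in high-fat females 1, 2 and 3, with only 1, 1 and 2 of 46 genes above the chow mean. In high-fat females 4 and 5 it was 0.18 and 0.20, with 42 and 43 of 46 genes above. The high-fat female libraries thus fell on both sides of chow. In the high-fat males the medians were -0.11, -0.05, -0.05, 0.02 and -0.11. Chow libraries also differed among themselves, from -0.12 to 0.12 in females and from -0.05 to 0.09 in males.

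All 4 complexes took part in this. In high-fat female 2 the medians were -0.14 for complex II, -0.22 for complex III, -0.25 for complex IV and -0.20 for complex V. In high-fat female 5 they were 0.19, 0.21, 0.16 and 0.24 in the same order. Complex II had the medians nearest to chow in high-fat females 1, 2, 3 and 4. Split at a GC content of 50.2%, the 23 genes with the higher GC content had medians of 0.21 and 0.22 in high-fat females 4 and 5, and the 23 with the lower 0.17 and 0.20. The ends of the GC range lay further apart. In high-fat female 5 the tested genes of highest GC content, Atp5g2, Cox6a1 and Cyc1, stood at 0.22, 0.36 and 0.33. Those of lowest GC content, Atp5f1, Cox7c and Atp5l, stood at 0.16, 0.07 and 0.12. In high-fat female 4 the values were 0.24, 0.28 and 0.27, and 0.20, 0.09 and 0.11. The part of GC content was not tested. The summed level of 36 nuclear complex I genes moved with the medians of the 4 complexes. It was 13741, 13430.1 and 13831 CPM in high-fat females 1 to 3 and 17248 and 17525 CPM in 4 and 5, against 14224 to 16691 CPM in chow females. So did the summed ventricular markers, at 115900.0, 115456 and 122882 CPM in the first 3 and 135080.0 and 137424 CPM in the last 2. Their part in the result was not tested. In whole heart, fewer cells of a type and less RNA per cell cannot be told apart.

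**Figure D2:**
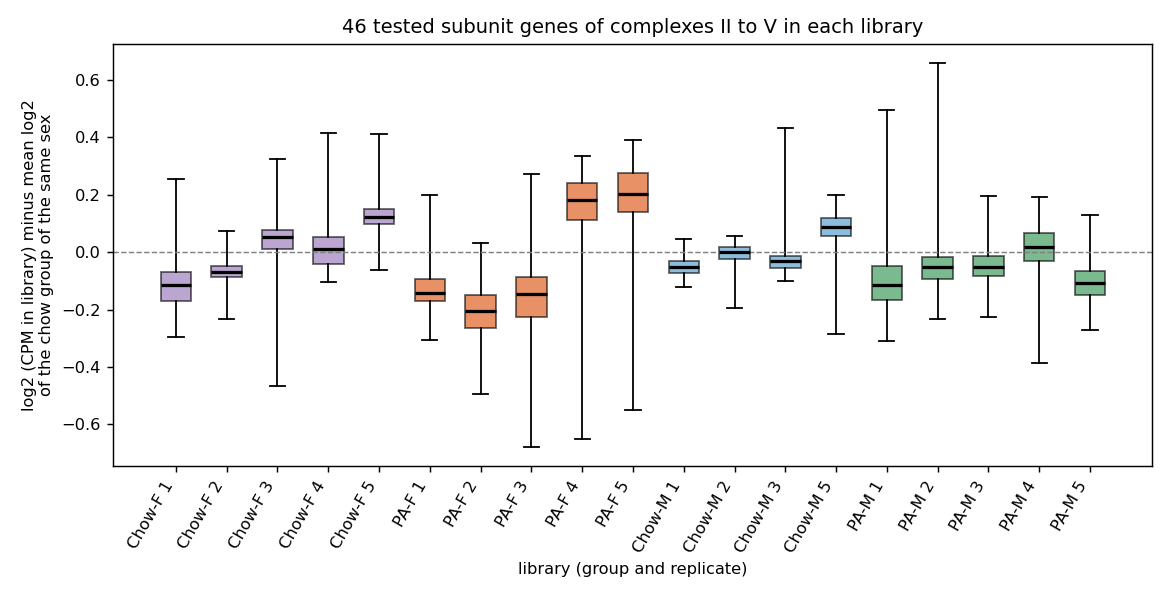
Log2 level of the 46 tested subunit genes in each library minus the mean of the chow group of the same sex. Boxes span the quartiles, black lines the median and whiskers the lowest and highest gene. The boxes of PA-F 1 to 3 lie below 0 and those of PA-F 4 and 5 above it.

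How the diet changed these genes in the female heart is asked by setting PA-F against Chow-F. With all libraries, Atp5s was the only one of 46 called, from 15.8 ± 0.966 CPM to 12.6 ± 1.20 CPM (SD, n = 5 and 5), a log2 difference of -0.32 (SE 0.06, adjusted p = 0.0114) in the edgeR fit. That fit called 2.53% of all genes in this comparison, so 1 of 46 is near the background. The median difference of the 46 genes was -0.01 log2 beside -0.02 for all 18069 genes tested, with 21 genes above 0 and 25 below. When high-fat females 4 and 5 were left out, 12 of 46 were called and all 12 were lower, where 2.5% of all genes were called lower. The median was then -0.18 log2, with 45 of 46 below 0, beside -0.00 for all genes.

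The genes lower in the 3 remaining high-fat females came from every complex. In complex II it was Sdhb, and in complex III Uqcrb, a small subunit of the ubiquinone-binding side, and Uqcrfs1, the Rieske iron-sulphur protein. In complex IV they were Cox5a, Cox6a2, Cox7b and Cox7c, all structural subunits around the catalytic core. In complex V they were Atp5c1, the rotating gamma subunit, Atp5f1 and Atp5o of the peripheral stalk, Atp5g1, a gene of the c-ring, and Atp5s. Falls ranged from -0.16 (Uqcrfs1) to -0.28 log2 (Cox6a2), and the smallest adjusted p was 0.00675, in Cox6a2. The subunits of the catalytic head Atp5a1 and Atp5b were not called, at -0.12 (SE 0.04, adjusted p = 0.0783) and -0.10 (SE 0.04, adjusted p = 0.188). Cox4i2, at 0.07 log2, was the one gene with a positive value.

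Atp5s lies in GRCm38 at chr12:69724950-69744660 on the plus strand. It measured 15.0, 15.5, 14.9, 17.3 and 16.0 CPM in chow females 1 to 5 and 13.2, 13.9, 12.9, 12.2 and 10.8 CPM in high-fat females 1 to 5. Every high-fat female lay below every chow female, which held for 1 of the 46 genes and for 1.9% of all genes in the lower direction. In males it measured 16.5, 15.9, 16.3 and 15.3 CPM in chow 1, 2, 3 and 5 and 15.6, 16.2, 16.4, 16.4 and 16.2 CPM in high-fat 1 to 5, and the groups overlapped. The fall was -0.32 log2 with all libraries and -0.24 (SE 0.06, adjusted p = 0.0228) without high-fat females 4 and 5. A GC offset per library turned the value to 0.30 log2 (adjusted p = 0.358), and together with leaving out these 2 libraries it was -0.21 log2 (adjusted p = 0.0324). The largest exon piece of the gene alone gave an adjusted p of 0.0511, and a fit to the female libraries alone 0.156. That last fit called 0.122% of all genes, in either direction.

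Cox7b, a small subunit of complex IV, measured 437, 446, 469, 511 and 517 CPM in chow females and 418, 388, 402, 455 and 449 CPM in high-fat females 1 to 5. High-fat females 1 to 3 lay below all chow females, while 4 and 5 overlapped with them. Its difference was -0.17 (SE 0.06, adjusted p = 0.122) with all libraries and -0.25 (SE 0.06, adjusted p = 0.0209) without those 2. Cox6b2 measured 4.45, 3.25, 2.69, 3.72 and 4.96 CPM in chow females and 4.28, 2.91, 2.33, 2.37 and 4.01 CPM in high-fat females, groups that overlapped, with a difference of -0.26 (95% interval -0.73 to 0.20, adjusted p = 0.521).

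Cox6a2 measured 859, 907, 981, 905 and 1021 CPM in chow females and 772, 753, 789.6, 965 and 1063 CPM in high-fat females. Uqcrb measured 429, 453, 439, 492 and 492 CPM and 418, 367, 388, 461 and 421 CPM in the same groups. In Cox6a2 high-fat females 1 to 3 lay below every chow female, and high-fat female 5 was the highest of the 10. In Uqcrb all but high-fat female 4 lay below every chow female.

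The 3 largest positive differences, none called, were in Cox4i2, Cox8a and Cox6a1. Cox4i2 measured 5.12, 4.67, 6.88, 5.51 and 5.53 CPM in chow and 5.23, 5.62, 6.64, 6.60 and 6.12 CPM in high-fat females, a difference of 0.13 (95% interval -0.08 to 0.34, adjusted p = 0.497). Cox8a measured 55.2, 65.3, 68.6, 65.6 and 69.3 and 62.5, 59.0, 64.3, 79.0 and 84.6 CPM, a difference of 0.11 (95% interval -0.09 to 0.31, adjusted p = 0.533). In both the groups overlapped, and in Cox8a the 2 highest of the 10 were high-fat females 4 and 5. Cox6a1 measured 59.6, 62.6, 76.0, 79.0 and 77.5 and 66.4, 63.6, 76.0, 85.6 and 90.7 CPM, a difference of 0.11 (SE 0.10, adjusted p = 0.556), and of -0.05 log2 without these 2.

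Leaving out high-fat females 4 and 5, 19 of 46 genes (41.3%) had every high-fat female below every chow female, against 6.46% of all genes. They were Sdhb, Sdhd, Uqcrb, Uqcrc2, Uqcrfs1, Cox5a, Cox6a2, Cox7b, Atp5a1, Atp5b, Atp5c1, Atp5f1, Atp5g1, Atp5g3, Atp5h, Atp5j, Atp5l, Atp5o and Atp5s. No gene lay wholly above chow in either set of libraries. Sdhb, for example, measured 929, 922, 1009.7, 906 and 1091 CPM in chow females and 837, 850.4, 870.2, 1117 and 1141 CPM in high-fat females: the first 3 lie under the chow libraries and the last 2 over them. With all libraries, the 95% intervals of 45 of the 46 genes lay within 0.5 log2 of 0 in this comparison, the exception being Cox6b2.

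**Figure D3:**
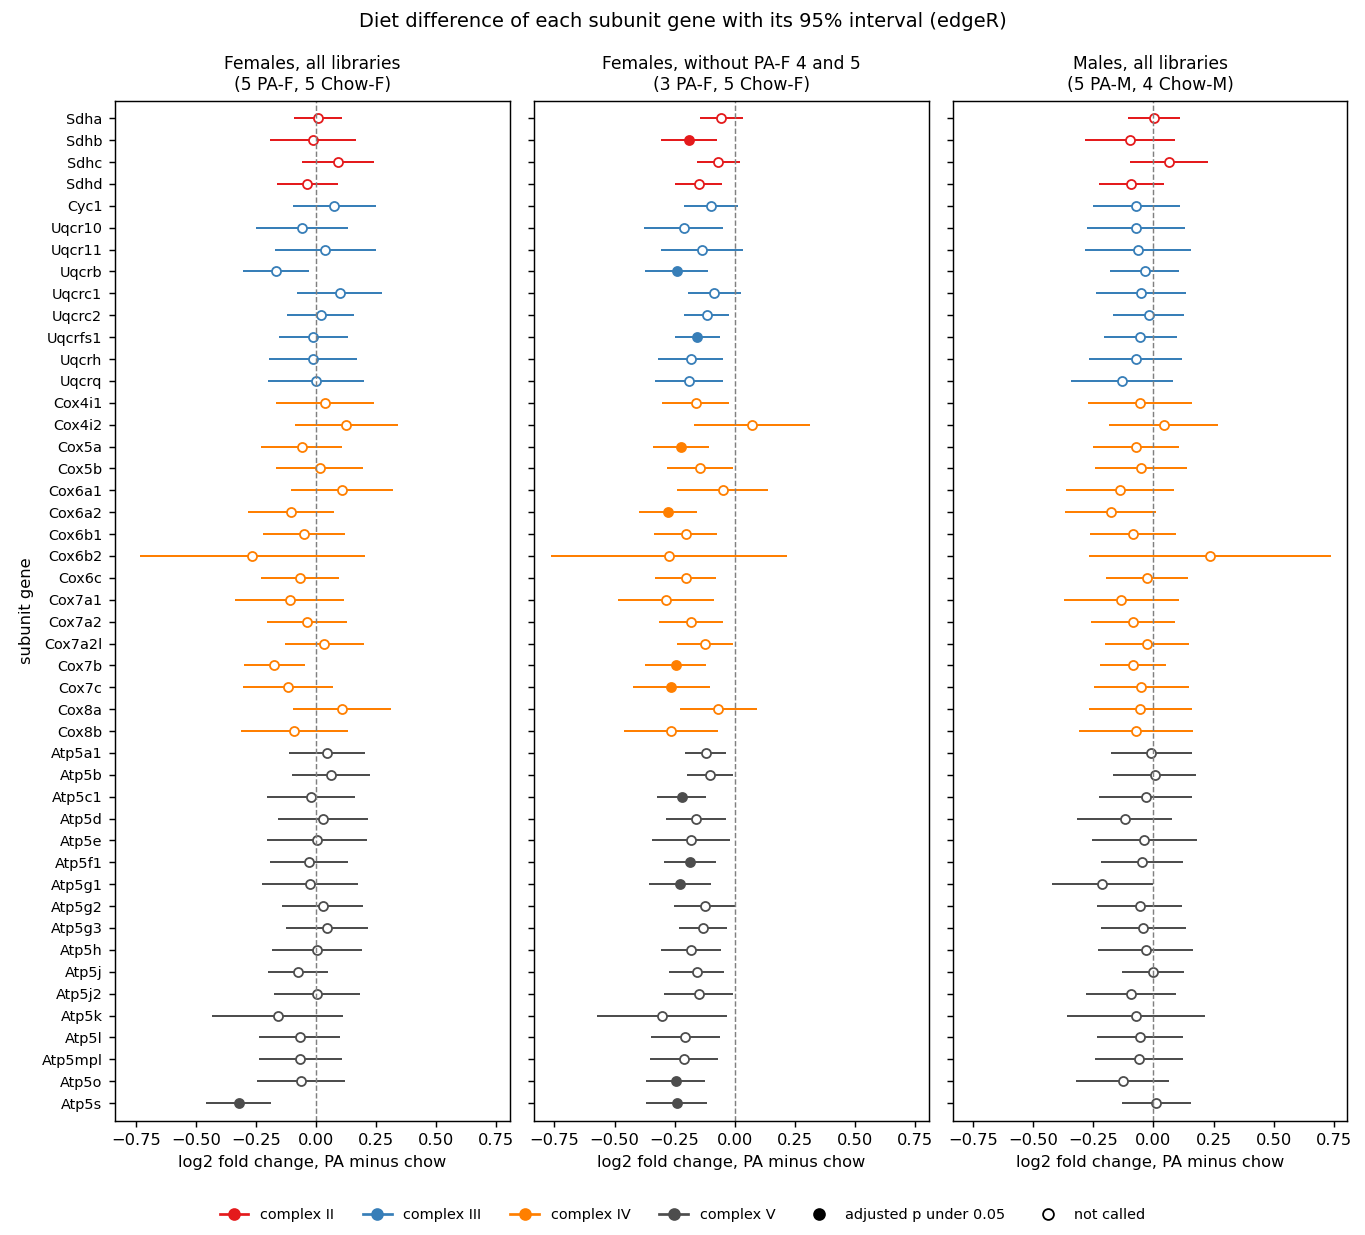
Log2 difference between high-fat and chow of each of the 46 tested genes with its 95% interval, coloured by complex, in females with all libraries, in females without high-fat females 4 and 5, and in males. Filled points are called. Only Atp5s is filled at the left, 12 genes are filled in the middle, all below 0, and none at the right.

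**Figure D4:**
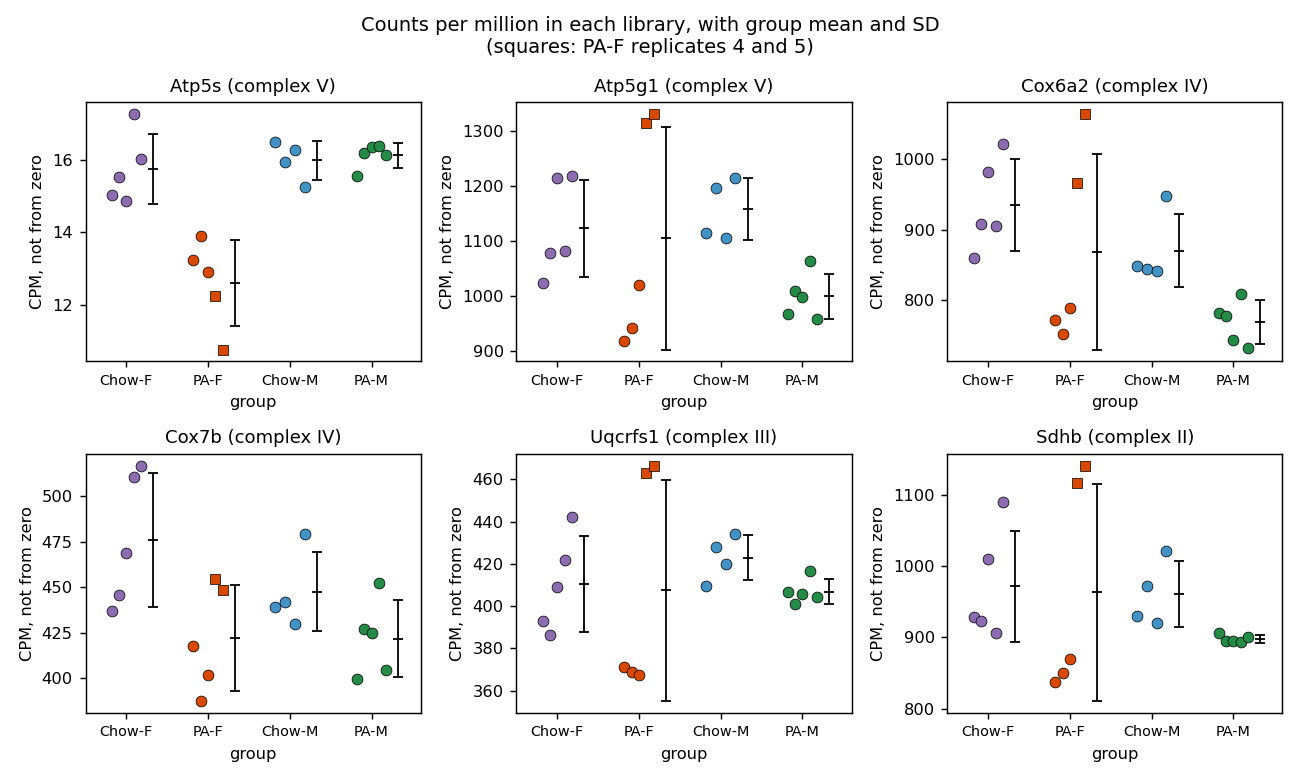
CPM of 6 subunit genes in each library, with the group mean and SD; axes do not start at 0. In PA-F the squares, replicates 4 and 5, lie above the circles for Atp5g1, Cox6a2, Cox7b, Uqcrfs1 and Sdhb and below them for Atp5s.

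In males, the same comparison between high-fat and chow called none of the 46 genes by edgeR or by DESeq2, where edgeR called 0.764% of all genes; 1 gene, Atp5g1, had an unadjusted p under 0.05. The differences were small: the median was -0.06 log2 beside 0.00 for all genes, and 40 of 46 genes were below 0. By complex the medians were -0.04 (II), -0.06 (III), -0.06 (IV) and -0.05 log2 (V). In complex III all 9 genes were below 0. The 95% intervals of 45 of 46 genes lay within 0.5 log2 of 0, again with Cox6b2 as the exception.

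Atp5g1, which encodes the c-ring subunit with Atp5g2 and Atp5g3, lies at chr11:96068852-96075670. It measured 1114, 1196, 1105 and 1215 CPM in chow males 1, 2, 3 and 5 and 968, 1009, 999, 1063 and 957 CPM in high-fat males 1 to 5. Every high-fat male lay below every chow male, with a difference of -0.21 (95% interval -0.42 to -0.01, adjusted p = 0.570). It was called once high-fat females 4 and 5 were left out of the shared fit, at -0.21 (SE 0.05, adjusted p = 0.0453), the 1 gene of 46 so called where 1.23% of all genes were called lower. A fit to the male libraries alone called it (adjusted p = 0.0124) and Cox6a2 (adjusted p = 0.0402), 2 of 46, where it called 3.3% of all genes and 1.55% lower. In females Atp5g1 measured 1023, 1078, 1214, 1082 and 1218 CPM on chow and 918, 941, 1021, 1315 and 1330.1 CPM on high fat.

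Cox6a2 measured 849, 845, 841 and 947 CPM in chow males and 782, 778, 744, 809.7 and 733 CPM in high-fat males, groups that did not overlap, with a difference of -0.18 (95% interval -0.36 to 0.01, adjusted p = 0.612). In 6 of the 46 genes (13.0%) every high-fat male lay below every chow male, against 3.98% of all genes. These were Sdhb, Sdhd, Cox6a2, Atp5d, Atp5g1 and Atp5o, and no gene lay wholly above. Cox6a1 measured 64.3, 70.9, 66.3 and 74.1 CPM and 58.0, 68.6, 61.6, 65.0 and 59.8 CPM, overlapping, with a difference of -0.14 (SE 0.11, adjusted p = 0.872).

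The largest positive differences in males were in Cox6b2, Sdhc and Cox4i2, and none was called. Cox6b2 measured 2.82, 2.38, 3.68 and 2.24 CPM on chow and 3.84, 4.30, 3.12, 2.08 and 2.98 CPM on high fat, a difference of 0.23 (95% interval -0.26 to 0.73, adjusted p = 0.959). Sdhc measured 384, 383, 400.4 and 404 and 412, 402, 417, 419 and 405 CPM, a difference of 0.07 (SE 0.07, adjusted p = 0.986). Cox4i2 measured 5.27, 4.91, 5.30 and 5.64 and 5.34, 6.26, 5.62, 5.10 and 4.87 CPM, a difference of 0.04 (SE 0.11, adjusted p = 0.999). The groups overlapped in all 3, in Sdhc by 1 chow male that lay above 1 high-fat male.

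Averaged over the sexes, the diet called none of the 46 genes by edgeR, where 2.93% of all genes were called; 4 had an unadjusted p under 0.05 and DESeq2 called 1, Atp5s. The largest falls were -0.15 (SE 0.05, adjusted p = 0.0760) in Atp5s, -0.14 (SE 0.06, adjusted p = 0.264) in Cox6a2 and -0.13 (SE 0.04, adjusted p = 0.127) in Cox7b, and the largest positive values were 0.08 in Cox4i2, 0.08 in Sdhc and 0.03 log2 in Atp5b. The median of the 46 was -0.04 log2. With high-fat females 4 and 5 left out, 15 of 46 were called lower, where 4.6% of all genes were, and the median was -0.11 log2. The 15 were Sdhb, Sdhd, Uqcrb, Uqcrfs1, Uqcrq, Cox5a, Cox6a2, Cox6b1, Cox7a1, Cox7b, Atp5c1, Atp5d, Atp5f1, Atp5g1 and Atp5o. These fits use the same chow libraries as the comparisons within each sex.

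Atp5b measured 6903, 7155, 7557, 6991 and 7823 CPM in chow females and 6851, 6787, 6763, 8690.2 and 8925 CPM in high-fat females. In males it measured 6896, 7272, 7097 and 7590.4 CPM on chow and 7269, 7223, 7348, 7298 and 7039.8 CPM on high fat. High-fat females 1 to 3 lay below every chow female and 4 and 5 above every one, while the males overlapped. Sdhc in females measured 391, 397, 410.0, 416 and 440.3 CPM on chow and 403, 383, 392, 509 and 502 CPM on high fat, again with 4 and 5 the highest.

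The difference between the diet effects of females and males was called in none of the 46 genes by edgeR or DESeq2. Across all genes the interaction called 0% (0 of 18069; 1839 at an unadjusted p under 0.05, and 58 called by DESeq2). Among the subunit genes 1 had an unadjusted p under 0.05: Atp5s, at -0.33 (SE 0.09, adjusted p = 0.277). Cox6b2 had the largest value, -0.50 (95% interval -1.18 to 0.18, adjusted p = 0.600), and Uqcrb stood at -0.13 log2. At the other end were Cox6a1 at 0.25, Atp5g1 at 0.19 and Cox8a at 0.16 log2. The median was 0.05 log2 with all libraries and -0.11 without high-fat females 4 and 5, where 44 of 46 were below 0 and none was called. A fall in females that passed the test and a difference in males that did not are thus not shown to differ.

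On chow, females and males showed no called difference in the 46 genes by edgeR or DESeq2, with none at an unadjusted p under 0.05, where edgeR called 3.22% of all genes. The median of females minus males was 0.05 log2, and 45 of 46 intervals lay within 0.5 log2 of 0. The largest values were 0.46 (95% interval -0.04 to 0.95, adjusted p = 0.356) in Cox6b2, 0.21 (SE 0.14, adjusted p = 0.487) in Atp5k and 0.14 (SE 0.10, adjusted p = 0.579) in Atp5e, small subunits of complex V in the last 2 cases. Atp5k measured 196, 229, 243, 321 and 230.4 CPM in females and 193, 201, 207 and 240.4 CPM in males, and Atp5e 399.9, 446, 504, 495 and 536 and 409.9, 409.8, 442 and 470.3 CPM. The groups overlapped in both.

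The lowest values were in complex III: -0.07 log2 in Uqcrc1, -0.07 in Cyc1 and -0.05 in Uqcrc2. Uqcrc1, a core protein, measured 1618, 1714, 1811, 1647 and 1829 CPM in females and 1705, 1825, 1796 and 1925 CPM in males. Cyc1 measured 611, 608, 663, 592 and 689 and 633, 685, 636 and 698 CPM, and Uqcrc2 1437, 1375, 1404, 1359 and 1560.1 and 1486, 1511, 1459 and 1461 CPM. Females and males overlapped in all 3. The clock genes differed between the sexes on both diets, with 8 of 14 called higher and 3 lower on each, all libraries included. Of all genes, 1.73% were called higher and 1.49% lower on chow, and 6.4% and 3.92% on high fat. Sex and the time at which hearts were taken thus cannot be told apart.

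On the high-fat diet, Atp5s was lower in females than in males, at -0.36 (SE 0.06, adjusted p = 0.00198). It was the only gene of 46 called, where 10.3% of all genes were. Every female lay below every male, which held for 1 of the 46 genes and for 5.22% of all genes. A GC offset per library turned the difference of Atp5s to 0.34 log2 (adjusted p = 0.222), and with high-fat females 4 and 5 left out as well it was -0.15 log2 (adjusted p = 0.110). The median was 0.08 log2, with 40 of 46 above 0. Without high-fat females 4 and 5 it was -0.07 log2, with 39 of 46 below 0, and 4 genes were called lower, where 5.47% of all genes were. These were Uqcrc2, Uqcrfs1, Atp5c1 and Atp5s, at -0.15, -0.14, -0.16 and -0.28 log2. With the same libraries left out, 10 of 46 genes (21.7%) had every high-fat female below every high-fat male, against 8.85% of all genes. With all libraries the largest positive values were 0.29 (SE 0.10, adjusted p = 0.0703) in Cox6a1, 0.25 (SE 0.09, adjusted p = 0.0986) in Cox8a and 0.19 (SE 0.08, adjusted p = 0.124) in Atp5g2. Besides Atp5s, the lowest were -0.11 log2 in Uqcrb and -0.04 in Cox6b2. High-fat males measured 412, 445, 447, 492 and 416 CPM of Uqcrb.

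For 6 pairs of genes that encode the same subunit, the ratio was taken within each library, which removes shifts common to both genes. Over 4 comparisons and 6 pairs, 24 tests were made, and none passed an adjusted p under 0.05. The smallest p that 5 against 5 libraries can give is 0.00794, and the smallest adjusted p was 0.0635. That adjusted p belonged to tests with groups fully apart, already at the smallest p. They could pass only if more tests reached it, so not passing does not show equal ratios. Without high-fat females 4 and 5 none passed either, the smallest p that 3 against 5 can give being 0.0179 and the smallest adjusted p 0.107. The same limit held there. Per exon length, the muscle genes dominated: Cox6a2 was 12.7 times Cox6a1, Cox8b 4.80 times Cox8a and Cox7a1 4.14 times Cox7a2. Cox4i2 was 0.00455 times Cox4i1.

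The ratio of Cox8b to Cox8a, as a ratio of CPM, was 3.13, 3.11, 3.31, 3.64 and 3.21 in chow females and 3.01, 2.78, 2.81, 2.92 and 2.79 in high-fat females. Every high-fat female, 4 and 5 included, lay below every chow female, with a difference of -0.19 log2 (SE 0.05, exact two-sided permutation p = 0.00794, adjusted p = 0.0635). In males it was 3.18, 3.13, 3.43 and 3.55 on chow and 3.48, 3.27, 3.31, 3.35 and 3.01 on high fat, overlapping, with a difference of -0.02 log2 (SE 0.06, exact two-sided permutation p = 0.770, adjusted p = 0.907). High-fat females against high-fat males differed by -0.20 log2 (SE 0.04, exact two-sided permutation p = 0.0159, adjusted p = 0.0762). Without high-fat females 4 and 5 the diet difference in females was -0.19 log2 (exact two-sided permutation p = 0.0179, adjusted p = 0.107) and that between the sexes on high fat -0.20 log2 (exact two-sided permutation p = 0.0357, adjusted p = 0.143). Cox8b itself measured 173, 203, 227, 239 and 222 CPM in chow females and 188, 164, 181, 231 and 236 CPM in high-fat females, and in males 187, 199, 196 and 232 CPM on chow and 179.9, 194, 192, 220.4 and 179 CPM on high fat. The levels of Cox8b overlapped between diets in both sexes. Cox8a in males measured 58.8, 63.5, 57.0 and 65.4 CPM on chow and 51.7, 59.5, 58.1, 65.7 and 59.5 CPM on high fat.

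The ratio of Cox6a2 to Cox6a1 was 14.4, 14.5, 12.9, 11.4 and 13.2 in chow females and 11.6, 11.8, 10.4, 11.3 and 11.7 in high-fat females. All but chow female 4 lay above the high-fat females, and the difference was -0.22 log2 (SE 0.07, exact two-sided permutation p = 0.0317, adjusted p = 0.0952), or -0.23 log2 (exact two-sided permutation p = 0.0893, adjusted p = 0.238) without high-fat females 4 and 5. In males it was 13.2, 11.9, 12.7 and 12.8 on chow and 13.5, 11.3, 12.1, 12.5 and 12.3 on high fat, overlapping, at -0.04 log2 (SE 0.05, exact two-sided permutation p = 0.492, adjusted p = 0.656).

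The ratio of Cox7a1 to Cox7a2 was 2.18, 2.50, 2.43, 2.41 and 2.16 in chow females and 2.41, 2.01, 2.09, 2.31 and 2.24 in high-fat females, at -0.08 log2 (SE 0.06, exact two-sided permutation p = 0.230, adjusted p = 0.425). Leaving out high-fat females 4 and 5 gave -0.11 log2 (exact two-sided permutation p = 0.179, adjusted p = 0.330). In males it was 2.35, 2.40, 2.51 and 2.62 and 2.25, 2.33, 2.41, 2.64 and 2.31, at -0.05 log2 (SE 0.05, exact two-sided permutation p = 0.381, adjusted p = 0.635). The groups overlapped in both sexes. Cox7a1 measured 580.4, 699, 738, 724 and 717 CPM in chow females and 633, 515, 558, 761 and 738 CPM in high-fat females, and Cox7a2 267, 279.8, 304, 301 and 332 and 263, 257, 267, 329 and 330.0 CPM. In males Cox7a1 measured 633, 671, 655 and 747 CPM on chow and 545, 575, 629, 744 and 591 CPM on high fat, and Cox7a2 269, 279, 261 and 286 and 242, 247, 262, 281 and 256 CPM. High-fat females 4 and 5 were the highest of their group in both genes.

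The ratio of Cox4i2 to Cox4i1 was 0.00236, 0.00201, 0.00264, 0.00216 and 0.00202 in chow females and 0.00242, 0.00259, 0.00287, 0.00228 and 0.00194 in high-fat females, at 0.11 log2 (SE 0.12, exact two-sided permutation p = 0.397, adjusted p = 0.635). With 4 and 5 of the high-fat females left out the value was larger, 0.23 log2 (exact two-sided permutation p = 0.0893, adjusted p = 0.238). In males it was 0.00237, 0.00208, 0.00228 and 0.00219 and 0.00240, 0.00267, 0.00245, 0.00215 and 0.00225, at 0.09 log2 (SE 0.07, exact two-sided permutation p = 0.222, adjusted p = 0.425). The groups overlapped. Cox4i1 measured 2170.0, 2322, 2602, 2547 and 2739 CPM in chow females and 2164, 2173, 2317, 2897 and 3149.7 CPM in high-fat females, and 2227, 2359, 2326 and 2574 CPM in chow males and 2229, 2342, 2294, 2374 and 2164 CPM in high-fat males.

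The c-ring of the ATP synthase is built from 1 protein that 3 genes encode. The ratio of Atp5g1 to Atp5g3 was 0.678, 0.690, 0.645 and 0.663 in chow males and 0.571, 0.597, 0.593, 0.629 and 0.582 in high-fat males, with every high-fat male below every chow male, a difference of -0.17 log2 (SE 0.03, exact two-sided permutation p = 0.0159, adjusted p = 0.0762). In females it was 0.640, 0.665, 0.699, 0.667 and 0.672 on chow and 0.608, 0.623, 0.645, 0.645 and 0.659 on high fat, overlapping, at -0.07 log2 (SE 0.03, exact two-sided permutation p = 0.0317, adjusted p = 0.0952), and -0.10 log2 (exact two-sided permutation p = 0.0357, adjusted p = 0.143) without high-fat females 4 and 5. The ratio of Atp5g2 to Atp5g3 followed sex and not diet in its order: it was 0.151, 0.155, 0.155, 0.154 and 0.159 in chow females and 0.147, 0.136, 0.133 and 0.143 in chow males, 0.15 log2 (SE 0.04, exact two-sided permutation p = 0.00794, adjusted p = 0.0635). On high fat it was 0.152, 0.155, 0.159, 0.151 and 0.149 in females and 0.136, 0.131, 0.140, 0.147 and 0.136 in males, 0.15 log2 (SE 0.03, exact two-sided permutation p = 0.00794, adjusted p = 0.0635), and 0.17 log2 (exact two-sided permutation p = 0.0179, adjusted p = 0.107) with these 2 left out. On both diets every female lay above every male, and the diet differences were -0.01 in females and -0.02 log2 in males. None of these passed adjustment over the 24 tests.

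Atp5g3, the leading c-ring gene here per exon length, measured 1598, 1619.7, 1736, 1621 and 1813 CPM in chow females and 1511, 1510.5, 1583, 2039 and 2017 CPM in high-fat females, and in males 1643, 1733, 1714 and 1832 CPM on chow and 1695, 1690.1, 1685, 1691 and 1646 CPM on high fat. Atp5g2 measured 241, 250.3, 269.6, 249.5 and 288 and 229.9, 234, 251, 307 and 301 CPM in females, and 242, 236, 228 and 262 and 231, 222, 236, 248 and 224 CPM in males. The 1 exon piece of Atp5g2 that a microRNA gene overlaps was set aside. In females, high-fat 4 and 5 were the highest of their group in both genes.

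**Figure D5:**
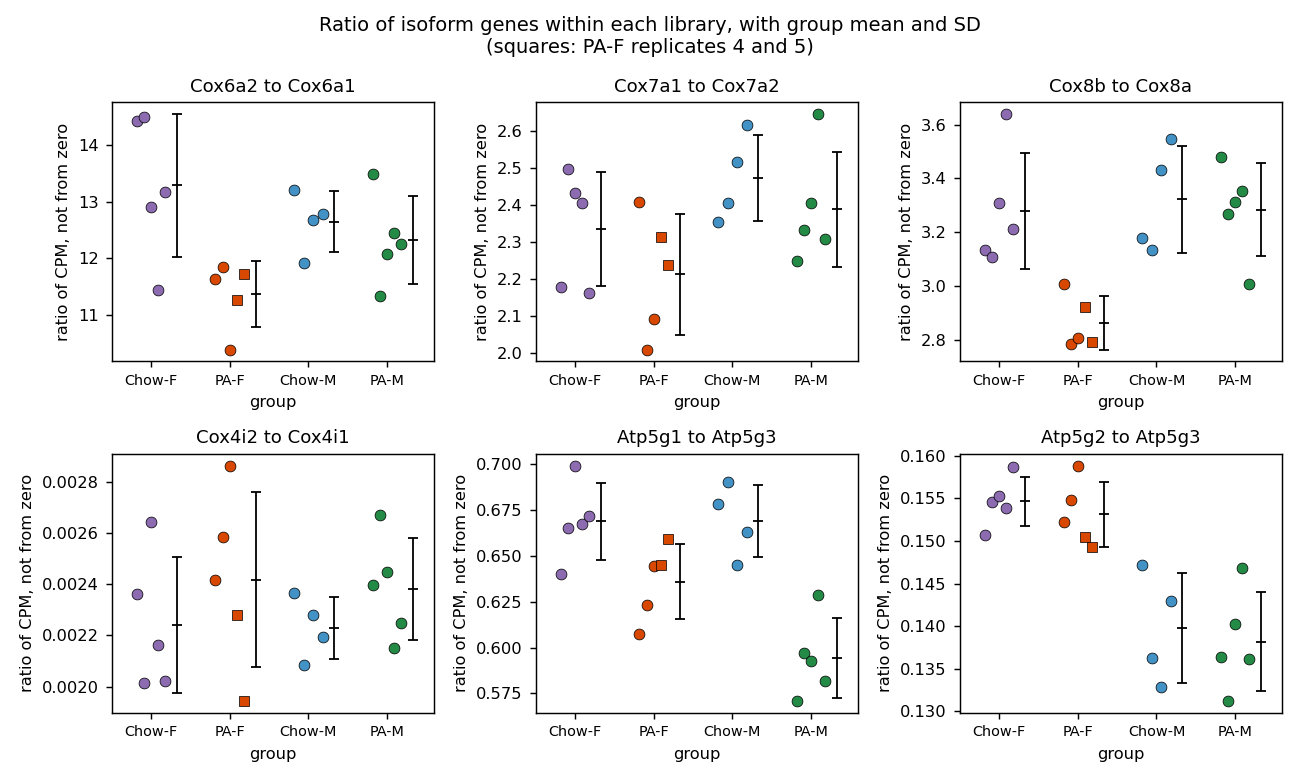
Ratio of CPM between 2 genes of the same subunit in each library, with the group mean and SD; axes do not start at 0 and squares are high-fat females 4 and 5. Cox8b to Cox8a is lowest in PA-F, Atp5g1 to Atp5g3 lowest in PA-M, and Atp5g2 to Atp5g3 higher in both female groups than in both male groups.

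Genes that work with the subunits were taken from lists. A list of 38 tested assembly factors holds genes that build the complexes or insert their cofactors. It also holds genes, such as Lrpprc and Fastkd1, that do neither. Of the 38, 2 were called lower in high-fat females, Cox11, which delivers copper, at -0.24 (SE 0.06, adjusted p = 0.0440) and Cox20 at -0.28 (SE 0.07, adjusted p = 0.0388), where 0.863% of all genes were called lower. By edgeR none was called in males (7 of 38 at an unadjusted p under 0.05, 0 by DESeq2), and the medians were -0.06 and -0.08 log2. After leaving out high-fat females 4 and 5 the count in females was 4 and the median -0.14 log2, and Cox20 was no longer called, at -0.19 (SE 0.06, adjusted p = 0.0814). On high fat, 4 of 38 were lower in females than in males: Cox11, Lrpprc, Fastkd1 and Ttc19, with Ttc19, an assembly factor of complex III, at -0.41 (SE 0.08, adjusted p = 0.00432). In that comparison 3.92% of all genes were called lower. Leaving out high-fat females 4 and 5, it was 8 of 38, Ttc19 at -0.30 (SE 0.07, adjusted p = 0.00766) among them and Fastkd1 not (adjusted p = 0.0913), where 5.47% of all genes were lower. Of 16 genes for ATP export, phosphate import and cytochrome c, edgeR called none for diet in either sex, with 1 and 2 at an unadjusted p under 0.05 in females and males and 0 and 0 called by DESeq2. Without high-fat females 4 and 5, 7 of the 16 were lower in females, with a median of -0.17 log2, where 2.5% of all genes were lower.

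Of 36 nuclear-encoded complex I genes, edgeR called none for diet in either sex with all libraries (1 and 1 at an unadjusted p under 0.05 in females and males, 0 and 0 by DESeq2), and the medians were -0.02 in females and -0.05 log2 in males. Without high-fat females 4 and 5, 12 of 36 were lower in females with a median of -0.20 log2, beside 12 of 46 and -0.18 log2 for complexes II to V. In that fit 2.5% of all genes were called lower. The 13 mitochondrially encoded subunits had medians of -0.34 log2 in females and 0.25 log2 in males, with none called by edgeR, 6 and 2 at an unadjusted p under 0.05, and 0 and 0 called by DESeq2. All 13 were above 0 in males, where 40 of the 46 nuclear subunit genes of complexes II to V were below it. In the fit without PA-F 4 and 5, 5 of the 13 were called higher in males, where 1.36% of all genes were, and the median in females was -0.08 log2. Their summed level was 102612, 87344 and 73586 CPM in high-fat females 1 to 3 and 84421 and 72063 CPM in 4 and 5, against 84052 to 94286 CPM in chow females. On high fat, 7 of 13 were lower in females than in males, where 3.92% of all genes were called lower. Among them were mt-Nd4l at -0.73 (SE 0.17, adjusted p = 0.0108) and mt-Atp8, a subunit of complex V, at -0.77 (SE 0.23, adjusted p = 0.0401). With high-fat females 4 and 5 left out it was 9 of 13, where 5.47% of all genes were called lower. There mt-Nd4l stood at -0.47 (SE 0.11, adjusted p = 0.00876) and mt-Atp8 was not called, at -0.52 (SE 0.21, adjusted p = 0.118). These transcripts were captured by polyA selection, and what that step adds was not tested.

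Of 18 regulators of mitochondrial genes, 1 was called for diet in females, where 0.863% of all genes were called lower. It was Tfb1m, a methyltransferase of mitochondrial ribosomal RNA, at -0.28 (SE 0.07, adjusted p = 0.0357), and -0.34 (SE 0.08, adjusted p = 0.0148) without high-fat females 4 and 5. The differences of the 18 ranged from -0.59 to 0.17 log2 in females and from -0.22 to 0.24 log2 in males, with none called in males. On high fat, Esrrb, an orphan nuclear receptor, was higher in females at 0.31 (SE 0.09, adjusted p = 0.0469) and Tfb2m, a mitochondrial transcription factor, lower at -0.38 (SE 0.11, adjusted p = 0.0287), 1 of 18 each way where 6.4% of all genes were higher and 3.92% lower. Neither was called without high-fat females 4 and 5, at 0.21 (SE 0.09, adjusted p = 0.156) and -0.26 (SE 0.09, adjusted p = 0.0598).

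Markers of cell types were measured beside these genes. The 12 ventricular markers had a median of -0.11 log2 for diet in females, with 1 called lower, Tnnt2, where 0.863% of all genes were. In males the median was -0.16 log2, with none called by edgeR, 6 at an unadjusted p under 0.05 and 0 called by DESeq2. In the fit without PA-F 4 and 5, 7 of 12 were lower in females, with a median of -0.21 log2, where 2.5% of all genes were called lower. The summed level of the ventricular markers was 128249 to 137728 CPM in chow females and 115456 to 137424 CPM in high-fat females, 130085 to 139328 CPM in chow males and 119160.0 to 126318 CPM in high-fat males. Of 10 fibroblast markers, 3 collagens rose in high-fat females, led by Col3a1 at 0.52 (SE 0.08, adjusted p = 0.00432), where 1.67% of all genes rose, and of 10 endothelial markers 3 rose there, with summed levels of 1458 to 1554 CPM on chow and 1599 to 1736 CPM on high fat. Of 6 erythroid markers Slc4a1 rose in high-fat females, at 1.92 (SE 0.38, adjusted p = 0.0133). The counts without high-fat females 4 and 5 were 3 of 10, 3 of 10 and 5 of 6, where 2.45% of all genes rose. The 7 atrial markers summed to 144 to 205 CPM in chow and 86.2 to 117 CPM in high-fat females, and to 125 to 193 CPM and 99.6 to 123 CPM in males, without overlap in either sex. Of the 5 tested, Nppa, which the ventricle also makes, was called lower in females, where 0.863% of all genes were. It went from 124 ± 23.6 to 61.7 ± 18.8 CPM (SD, n = 5 and 5, edgeR adjusted p = 0.0266). None was called in males by edgeR (2 at an unadjusted p under 0.05, 0 by DESeq2). Myl7 and Myl4 stood at 0.20 and 0.30 log2 in females, and Sln and Bmp10 averaged under 0.1 CPM. Summed smooth muscle and pericyte markers were 693 and 440.2 CPM in high-fat females 4 and 5, against 996 to 1033 CPM in 1 to 3 and 923 to 1065 CPM in chow females. The part of these cells in the subunit differences was not tested. The brown fat list holds Cox8b itself; its defining genes Ucp1 and Elovl3 averaged under 0.1 CPM.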

How the data were processed

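Per the labels' protocols, heart RNA was selected by its polyA tail and sequenced on a NovaSeq. The authors deposited whole counts: in 19 files per exon piece, with a read that spans several pieces counted in each, and for Chow-M4 per gene. GRCm39, Salmon 1.5.1 and DESeq2 1.32.0 are named in the submitters' processing notes, while the gene positions in the file of Chow-M4 match GRCm38 (GENCODE vM21) for 40 of the 48 subunit genes, so positions are given in GRCm38. The aligner and whether reads were counted by strand are not given in the sources used here.

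From these files, pieces were summed per gene. Of 33309 pieces with joined gene IDs, 27829 could be given to 1 gene and 5480 were set aside, with 1.346% to 1.493% of counts. Near-identical pseudogenes exist for many subunit genes, and how their shared reads were placed is unknown. Genes were fitted together with edgeR 4.0.16 (TMM, filterByExpr, quasi-likelihood F-test, 1 model of 4 groups, 15 residual degrees of freedom), with Benjamini-Hochberg adjustment over the 18069 genes tested, and called at an adjusted p under 0.05. Isoform ratios were tested by exact two-sided permutation in SciPy 1.17.1, adjusted over 24 tests. Intervals are 95% intervals from the fit. The script was tested on simulated data with 200 changed genes.

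The members, lists and tests were chosen with earlier results of these data known. Values in each library are given for called genes, for the 3 largest differences in each direction per comparison and for the isoform pairs; other genes named singly, such as Sdhb and Uqcrfs1 among the examples, were picked after their values were seen. Alternatives were DESeq2 1.42.0, its size factors in edgeR, only the groups compared, no filter, a filter of 1 CPM in 5 libraries, a GC offset per library, a replicate block, both of these together, the largest exon piece, leaving out PA-F 4 and 5, and each library in turn; 1 was added after the data were seen, PA-F 4 and 5 left out with the GC offset. Precision rests on the spread between libraries, not on the totals, since a read can count more than once.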

Additional observations from a re-analysis of the deposited data

Results flagged for a closer look

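In groups of 4 or 5 libraries, a library was marked when its gap to the nearest other exceeded Dixon's critical value for the range of the group (0.829 for 4 libraries, 0.71 for 5). Of 116 groups of named genes, ratios and medians tested, 4 were marked, and chance marks about 1 in 20. Cox8a was low in 1 chow female, at 55.2 CPM against 65.3 to 69.3 CPM in the others. Cox7a1 was also low in 1 chow female, at 580.4 CPM. Cox6a2 was high in 1 chow male, at 947 CPM against 841 to 849 CPM. Atp5g3 was low in 1 high-fat male, at 1646 CPM against 1685 to 1695 CPM, a difference of a few percent in a tight group.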

How the results depend on the processing

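The count of subunit genes called hinged on high-fat females 4 and 5. With them left out it was 12 for diet in females (1 with all libraries), 1 in males (0), 15 for the average (0) and 4 for sex on high fat (1), and with a GC offset as well 12, 1, 19 and 5, all lower, where 3.52%, 1.5%, 6.22% and 4.49% of all genes were called lower. The GC offset with all libraries gave 0 for diet in females (all genes: 1.83%) and 3 for sex on high fat, all 3 higher (all genes: 5.47% higher, 8.02% in either direction). It turned Atp5s to 0.30 and 0.34 log2. The largest value of a subunit gene became 1.08 and 1.24 log2 in these comparisons, beside 0.13 and 0.29 without the offset. With a replicate block, the average counted 1 and sex on high fat 3, of which 2 were higher (all genes: 2.57% and 10.4% in either direction). The replicate block with the GC offset counted 0 for both (all genes: 2.54% and 6.11%) and 0 for diet in females (all genes: 1.23%). It put Atp5s at 0.25 and 0.29 log2 for diet in females and sex on high fat. Same-numbered libraries correlated at -0.07 to 0.16 in their deviations (median 0.025), and other pairs at -0.17 to 0.12 (median -0.005). A library was closest to its own number in 21 of 54 comparisons, each among the 4 or 5 libraries of another group. The numbers were not taken to pair samples, and what equal numbers share was not tested. Only the groups compared gave 0 for diet in females and 2 in males (all genes: 0.122% and 3.3%). The largest exon piece gave 0 for diet in females (all genes: 1.54%), and DESeq2 1 for the average (all genes: 4.45%). Leaving out single libraries gave 0 to 1 for the average (1 without PA-F 2 or PA-F 5, all genes 2.91% and 3.62%) and 1 to 3 for sex on high fat (3, of which 2 higher, without PA-F 1 or PA-F 2, a share of the 46 below the 19.1% and 12.5% of all genes). The causes were not tested. It gave 0 to 4 called isoform ratios, 4 without PA-M 2 or PA-M 5. A ratio at the smallest p passes only when enough other tests reach it. Without PA-M 5, every high-fat female lay below every high-fat male in Cox8b to Cox8a. For diet by sex and for sex on chow every alternative run gave 0. Of 1750 values of single genes, medians and ratios under an alternative, 1656 kept their direction and their side of the threshold (medians: moved by less than the spread between libraries), and the 4 reversals of a called value are those of Atp5s given here. Depth was not varied; the lowest tested genes, Cox6b2 and Cox4i2, lay at a few CPM.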
